A study of Macaca fascicularis with 34 samples.

Results

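The genes of the cytosolic ribosomal proteins were followed through 34 single cells of cynomolgus monkeys (Macaca fascicularis, subspecies fascicularis) whose transcripts were read from their 3′ ends. The set comprises every row of the expression table whose human symbol is RPL or RPS followed by a number, with an optional A, X, L or paralog number, leaving out the ribosomal S6 kinases and RPS4Y1. It holds 76 of the 28551 rows, 47 of the large subunit and 29 of the small one, each symbol on 1 row. RPLP0, RPLP1, RPLP2, RPSA and FAU, which also encode ribosomal proteins, have symbols of another form and are given only for comparison. Other ribosomal protein genes are not analysed here. Embryos gave 3 cells on embryonic day (E) 13, 1 on E14, 11 on E16, 2 on E17 and 8 on E20. Male gonads gave 6 cells on E36, 1 on E47 and 2 on E55. The labels name no genotype, treatment, animal or cell type, and no sex for the embryos. Each stage therefore stands as 1 sample: values are described with the spread between cells, and no difference was tested.

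A ribosome consists of a small subunit, which reads the messenger RNA, and a large subunit, which joins the amino acids. Each ribosomal protein is needed in about equal number, so cells usually make their messengers together and at a high level. Most of these messengers begin with a terminal oligopyrimidine (TOP) tract, through which the growth kinase complex mTORC1 sets how strongly they are translated. A few members also have a paralog, such as RPL39L, which is known from male germ cells, or RPS27L, a target of p53. Primordial germ cells, the precursors of sperm and eggs, are found in the early embryo and later enter the gonad.

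Levels are RPM, 3′-end reads scaled to a common library total, for which no scaling by transcript length applies. Depth ran from 472189 to 3556591 reads per cell, as recovered from the value of 1 read in each column, and was lowest at E13. Clustering the cells on 1000 variable genes without the ribosomal protein genes gave 25 cells with germ cell markers (NANOG, SOX15 and TFAP2C among the leading genes) and 9 with mesoderm markers (PDGFRA, FN1), called germ-cell-like and mesoderm-like here. In the 25, all 14 germ cell markers had a mean of 15 RPM or more, and 12 had a median at that level. The other 9 (E20 cells 1 to 7, E16 cell 8 and E17 cell 2) reached that mean for 10 of 10 mesoderm markers. They also did so for 6 of 10 amnion, 7 of 8 endoderm, 6 of 8 epiblast and 6 of 16 gonadal somatic markers. Of the germ cell markers 9 of 14 reached it. By the median over these cells the counts were 8 mesoderm, 4 amnion, 3 endoderm, 4 epiblast, 3 gonadal somatic and 5 germ cell markers. E17 cell 2 was intermediate, with 3503 RPM over the germ cell and 676 RPM over the mesoderm markers, and a second clustering (Ward linkage) placed it with the germ-cell-like cells. The E47 cell was among the 25, although its markers were mainly gonadal somatic. It had 2381 RPM over the germ cell markers, the lowest of the 25, and 21904 RPM over 16 gonadal somatic markers. Cell titles carry a code that follows the stages: MS10 at E13, MS13 at E14, MS09 for the E16 cells and E20 cell 8, MS08 for E20 cells 1 to 7, and MS11 at E17 and in all gonad cells. What the code stands for is not stated. Stage, code and cluster thus largely coincide, and differences between most stages cannot be told apart from them.

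Together the 76 genes held 10.1% to 24.99% of a cell's reads, and E36 gonad cells had the highest mean share of the stages. The 3 E13 cells had 17.2, 16.9 and 17.98% of their reads in these genes, and the E14 cell 16.8%. The 11 E16 cells averaged 17.9% ± 3.31 (SD, n = 11 cells), from 10.1% in E16 cell 8, the mesoderm-like one, to 21.6%. Without that cell the E16 share was 18.7% ± 2.14 (SD, n = 10 cells). E16 cell 8 thus stood apart from the rest of its stage. E17 cells 1 and 2 had 19.8% and 17.3%. The 7 mesoderm-like E20 cells averaged 14.6% ± 1.99 (SD, n = 7 cells), between 12.3% and 17.7%, while the germ-cell-like E20 cell 8 had 23.7%. All 6 E36 cells lay between 21.0% and 24.99% and averaged 23.0% ± 1.78 (SD, n = 6 cells). The E47 cell lay far below them at 12.2%, and E55 cells 1 and 2 had 17.5% and 16.8%.

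**Figure D1:**
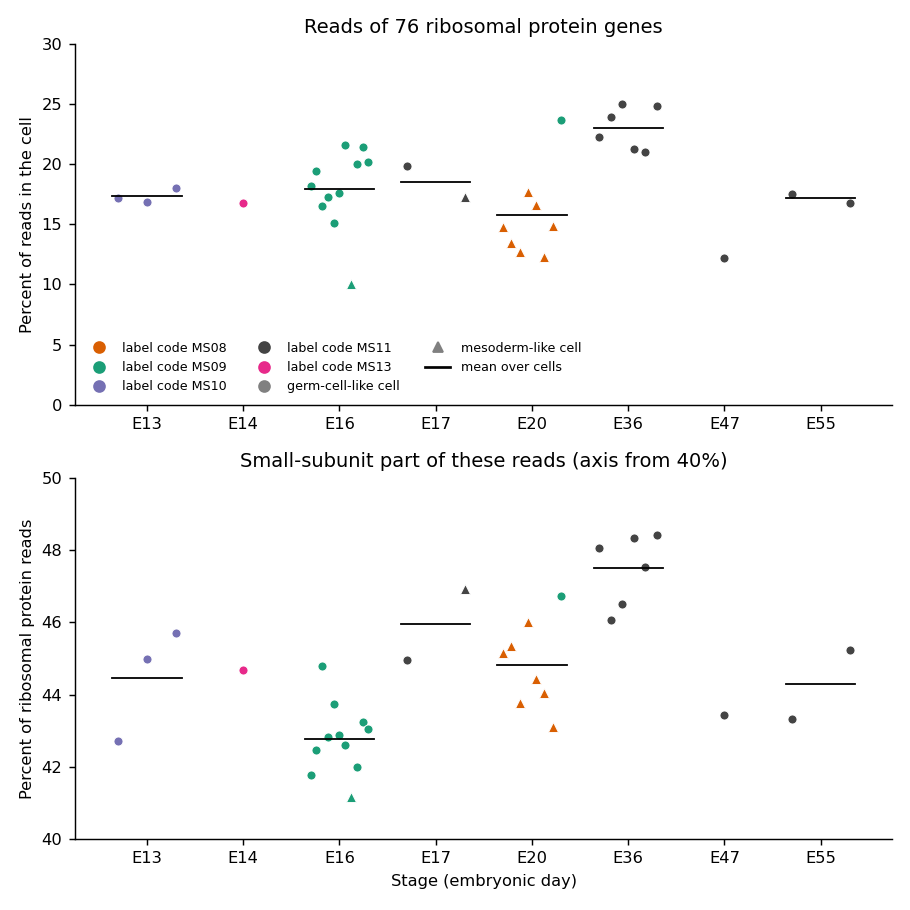
Each point is 1 cell, placed by stage, coloured by label code and shaped by cluster, and black lines are means over cells. The upper panel shows the percent of the cell's reads in the 76 genes: E36 cells lie between 21.0% and 24.99%, and E16 cell 8 and the E47 cell are lowest at 10.1% and 12.2%; the lower panel, whose axis starts at 40%, shows the percent of these reads that belong to small-subunit genes.

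The share of gonad cells overlapped that of embryo cells. Gonad cells averaged 20.5% ± 4.27 (SD, n = 9 cells) and embryo cells 17.2% ± 3.13 (SD, n = 25 cells), a difference of 3.36 percentage points. This difference rested on E36: with the E47 and E55 cells alone the difference from embryo cells was -1.67 points. That value came with the single E47 cell at 12.2%, since the 2 E55 cells averaged 17.1%, close to the embryo mean. E55 minus E36 was -5.90 points, and the 2 E55 cells lay below all 6 E36 cells. E20 minus E16 was -2.17 points, but among cells of code MS09 the sign was the opposite: E20 cell 8 lay 5.77 points above the E16 mean. The mesoderm-like E20 cells also lay 4.57 points above the mesoderm-like E16 cell. Counting error was small beside these gaps: the exact binomial 95% interval of E16 cell 8 was 10.02% to 10.1%, from 223112 member reads. Such intervals cover counting error only, since amplified reads are not independent molecules.

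The 2 cells with the lowest shares were also those with the highest levels of mesoderm markers (E16 cell 8) and of gonadal somatic markers (the E47 cell). E16 cell 8 had 14603 RPM over 10 mesoderm markers, against 77.6 to 269.9 RPM in the other E16 cells. The mesoderm-like E20 cells reached up to 14201 RPM, nearly the same level, with shares of 12.3% to 17.7%. The E47 cell had 21904 RPM over 16 gonadal somatic markers, against 46.8 to 1496 RPM at E36 and 184 and 449 RPM at E55. E16 cell 8 and the E47 cell also had the most genes at 15 RPM or more, 8106 and 8016, while E36 cells had 5233 to 6789. Over the 34 cells the share and the number of such genes had a Pearson r of -0.64, and within the 10 germ-cell-like E16 cells one of -0.14. Share and depth had an r of 0.19 over the 34 cells. All these values come from the same libraries, each scaled to 1 total, and their part in the differences was not tested.

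Small-subunit genes held a larger part of the ribosomal protein reads in E36 cells than in E16 cells. In the E16 cells this part was 42.8% ± 0.982 (SD, n = 11 cells), from 41.2% to 44.8%. In the 6 E36 cells it was 47.5% ± 0.989 (SD, n = 6 cells), from 46.1% to 48.4%, above every E16 cell. The 3 E13 cells had 42.7, 45.0 and 45.7%, the E14 cell 44.7%, the E17 cells 45.0% and 46.9%, and the E20 cells 44.8% ± 1.21 (SD, n = 8 cells). It was 43.4% in the E47 cell and 43.3% and 45.2% at E55, within the range of the embryo cells. E17 cell 2 and the germ-cell-like E20 cell 8 (46.7%) lay within the range of the E36 cells. Gonad cells as a whole stood 2.37 points above embryo cells (46.3% ± 1.99 against 44.0% ± 1.55, SD, n = 9 and 25 cells). Within code MS11 the gap to the 2 E17 cells was 0.391 points.

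Single members ranged widely in level, and 74 of the 76 passed a filter of 10 RPM on the mean over all cells, as did 9375 of all rows. The highest mean belonged to RPL41, a very short large-subunit protein, at 7237 ± 2038 RPM (SD, n = 34 cells). RPS29, RPS12, RPS7 and RPL13A followed at 6343, 5831, 5678 and 5502 RPM, with ranges over cells that overlapped. RPL41 alone took 4.04% of member reads. In all, 69 members averaged 400 RPM or more, and the lowest of these, RPL29 (named after its values were seen), had 457 RPM. Below them lay only paralogs of other members: RPL22L1 at 368 RPM, RPL7L1 at 139, RPL39L at 88.6, RPL26L1 at 77.7 and RPS27L at 56.3 RPM. RPL10L and RPL3L did not pass the filter. Ribosomal protein genes have many near-identical processed copies in primate genomes, and how reads shared with such copies were counted is not given in the sources used here, so the level of any single member is uncertain to that extent.

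The levels of the members, compared on a log scale, were much alike between cells. The wide range of levels among members, low paralogs included, itself raises such correlations, and no value for the abundant members alone is given here. Between pairs of cells, the log2(RPM + 1) values of the 74 members had Pearson correlations of 0.74 to 0.98 (561 pairs, median 0.90), and the least alike pair was E13 cell 3 and E16 cell 8. Across cells, 2 members had a median correlation of 0.38 over 2701 pairs. RPL7L1, RPL22L1, RPL26L1 and RPS27L were among the members that moved least with the others, with median correlations of -0.11, -0.07, -0.04 and 0.01. Among the most even parts of the member reads were those of RPL32 (0.731% to 1.24% of them in the 34 cells), RPL10A (1.02% to 1.88%) and RPS7 (2.41% to 4.97%). Genes do not count as replicates here, and cells of 1 stage share a code.

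**Figure D2:**
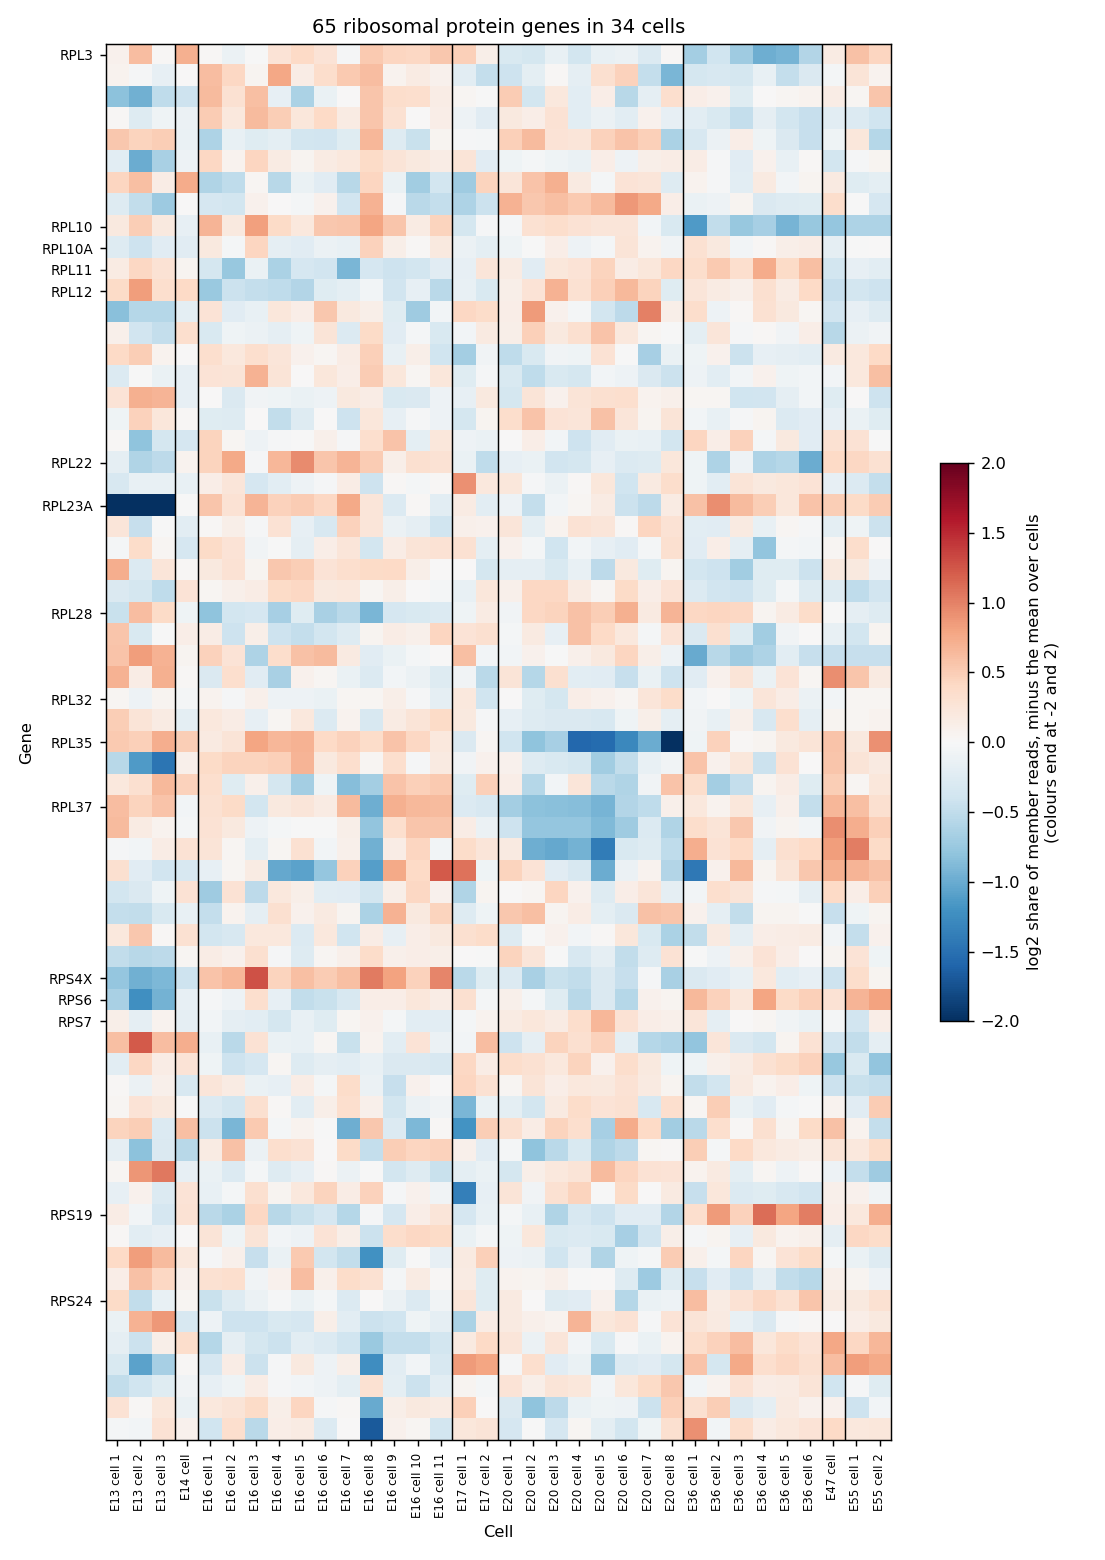
Rows are 65 of the 69 members that averaged at least 400 RPM, some of them labelled, columns the 34 cells, and colour is the log2 share of the cell's member reads minus the gene's mean over cells. RPL23A at E13, RPL35 at E20, RPS4X at E16, RPL10 in gonad cells and RPS19 at E36 stand out as blocks, while rows such as RPL32 and RPL10A stay pale.

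Between gonad and embryo cells most members lay slightly higher in gonad cells, a direction that rested on E36. Differences here are of mean log2(RPM + 1), and 1 unit is 2-fold. The median of the 74 members was 0.24 (59 above 0 and 15 below), while the median of all rows was -0.17. With the E47 and E55 cells alone, the median member was -0.15. Gonad cells had at least 2 times the level of RPL39L and RPS19, and 0 members were 2-fold lower, against 9.34% and 19.9% of all rows. As a background of like level, the members were also set beside the 343 rows that averaged 400 RPM or more, members included. Of these rows 2.04% were 2-fold higher and 3.5% lower. Of the 69 members at that level, 1 was higher, and 0 were lower. Their median was 0.24, against 0.10 for the 343 rows.

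Between E20 and E16 the median member lay at -0.22, near the -0.20 of all rows. Its sign was the opposite within code MS09 (0.45, 1 E20 cell) and for mesoderm-like E20 cells against the mesoderm-like E16 cell (0.47). Of the 74 members 0 were at least 2-fold higher and 6 at least 2-fold lower, against 15.1% and 24% of all rows. Among members of 400 RPM or more the counts were 0 and 3 of 69 (RPL35, RPS4X and RPL37, the last named after its values were seen), against 4.96% and 7.58% of such rows. Between E55 and E36 the median member lay at -0.38, while all rows had 0.60. Here 2 members were at least 2-fold higher and 4 lower, against 39.3% and 10.6% of all rows, and in the class of 400 RPM or more the counts were 0 and 4 of 69, against 2.62% and 6.41% of rows. The 4 were RPS12, RPL11, RPL12 and RPS16. In the 343 rows of that class the median was -0.25, so in this comparison abundant rows as a whole lay lower at E55. E36 cells enter both this comparison and that of gonad with embryo.

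**Figure D3:**
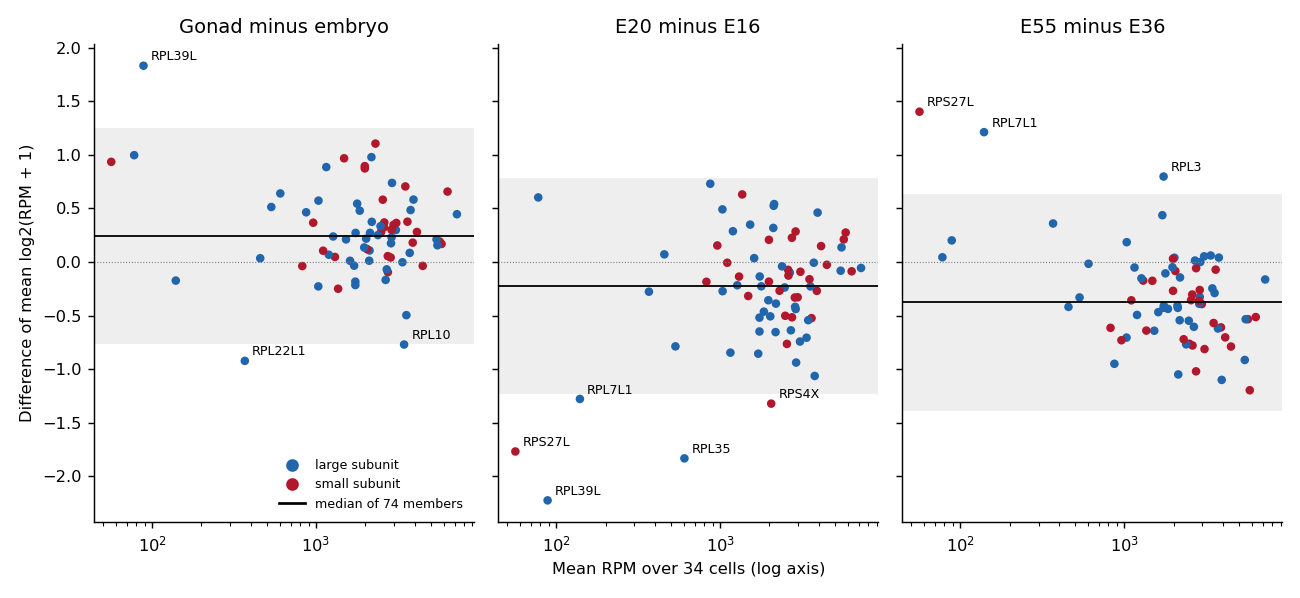
Each point is 1 of the 74 members, with its mean RPM over 34 cells on the horizontal log axis and its difference of mean log2(RPM + 1) on the vertical axis, for the 3 comparisons. The line is the median member (0.24, -0.22 and -0.38) and the grey band reaches 1 log2 unit to each side; the named members lie outside it.

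Members that left the common trend were defined as those at least 1 log2 unit from the median member. In gonad against embryo these were RPL39L (1.59), RPL22L1 (-1.17) and RPL10 (-1.01). In E20 against E16 they were RPL39L (-2.002), RPL35 (-1.61), RPS27L (-1.55), RPS4X (-1.10) and RPL7L1 (-1.06), all below. In E55 against E36 they were RPS27L (1.78), RPL7L1 (1.59) and RPL3 (1.17), all above. This scale averages logs over cells, so cells with few reads of a gene weigh more than in a mean of RPM. By the log2 ratio of mean RPM, RPL39L lay 0.76 from the median member in gonad against embryo, under 1 unit. In E20 against E16, RPL39L (-0.63), RPS27L (-0.87) and RPL7L1 (-0.65) also lay under 1 unit by that ratio, and RPL35 and RPS4X stayed beyond it. In E55 against E36 the same held for RPL7L1 (0.89). With a pseudocount of 10, RPL35, RPS4X and RPL39L stayed beyond 1 unit in E20 against E16. Of these 8 genes, RPL35, RPS4X, RPL10 and RPL3 are abundant, and 4 are paralogs with low levels. RPL10 sits at the threshold: without E36 cell 1 its value was -0.96, without E36 cell 5 -0.98, and it was also just under 1 unit without E16 cell 1, 3 or 8 or E20 cell 6. RPL22L1 was at -0.93 without E36 cell 6 and -0.99 without E36 cell 5. RPL7L1 in E20 against E16 lost its place without E20 cell 5 (-0.69), E20 cell 8 (-0.70) or E16 cell 5, 6 or 8 (-0.97, -0.97 and -0.94). In E55 against E36 RPL7L1 had 0.73 without E36 cell 3, and RPS27L 0.72 without E55 cell 2 and 2.80 without E55 cell 1.

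RPL35, a large-subunit protein at the mouth of the peptide exit tunnel, was low in every E20 cell. The 3 E13 cells had 737, 704 and 887 RPM and the E14 cell 707. The 11 E16 cells had 387 RPM at the lowest, 729 at the median and 892 at the highest, and the E17 cells 485 and 532. The 8 E20 cells had 335, 230.5, 240.3, 179, 171, 149.8, 223 and 145 RPM in order of cell number. Their highest value was below the lowest of all other cells, 387 RPM, which was that of E16 cell 8. E36 cells had 625.2 to 985 RPM, the E47 cell 546, and the E55 cells 599 and 949. The mean was 739 ± 149 RPM (SD, n = 11 cells) at E16 and 209 ± 62.5 RPM (SD, n = 8 cells) at E20. E20 cell 8, a germ-cell-like cell of code MS09, was the lowest of all at 145 RPM, so the low values spanned both codes and both clusters at E20. Of all rows 3 (0.032%) lay below every other cell in all E20 cells and 1 (0.0107%) above, and RPL35 was the only member among them.

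RPS4X, an X-linked small-subunit protein, had its highest part of member reads at E16. In the 11 E16 cells it took 1.43% at the lowest, 1.60% at the median and 2.56% at the highest of member reads, all above the 1.34% that was the highest of all other cells. The 3 E13 cells had 0.612, 0.538 and 0.566%, the E14 cell 0.788%, the E17 cells 0.722 and 0.891%, and the E20 cells 0.671% to 1.03%. Among gonad cells, those of E36 had 0.856% to 1.21%, that of E47 0.789% and those of E55 1.34 and 1.09%. On the RPM scale E16 cells had 2160.3 to 4206, E20 cells 897 to 1582, and E36 cells 1889 to 2566, so that on this scale E16 and E36 overlapped. E16 cell 8 (2.16%) lay with the other E16 cells and E20 cell 8 (0.671%) with the other E20 cells. In RPM, 1 row of all (0.0107%) lay above and 1 (0.0107%) below every other cell in all E16 cells, and no member was among them.

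RPL10, also X-linked and placed in the large subunit as one of its last proteins, was lower in gonad cells. It took 2.09% at the lowest, 2.70% at the median and 3.29% at the highest of member reads at E16, 2.13, 2.61 and 2.12% in the E13 cells, 1.65% in the E14 cell and 1.499% to 2.36% at E20. The E17 cells, which share code MS11 with the gonad cells, had 1.45 and 1.83%. E36 cells had 0.844% to 1.32%, the E47 cell 1.08% and the E55 cells 1.21 and 1.21%, so all 9 gonad cells lay below all 25 embryo cells, the lowest of which had 1.45%. How many members or other rows separate gonad from embryo cells in this way was not counted. In RPM the groups overlapped, with 3871 ± 987 RPM (SD, n = 25 cells) in embryo and 2264 ± 548 RPM (SD, n = 9 cells) in gonad cells. Against the 2 E17 cells alone RPL10 lay -0.62 from the median member. The other X-linked members, RPL39 and RPL36A, did not share this pattern: they differed by 0.57 and 0.24 between gonad and embryo, and RPS4X by 0.12, beside -0.77 for RPL10. RPL36A was named after its values were seen. The sex of the embryos is not given in the labels, and its part in the levels of X-linked genes was not tested.

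RPL23A, a large-subunit protein that lies near the exit tunnel and takes part in protein targeting, was low at E13. The 3 E13 cells had 368, 362 and 358 RPM, while the lowest of the other 31 cells had 959.9 RPM. The E14 cell had 1745 RPM, E16 cells 1248 RPM at the lowest, 2469 at the median and 3825 at the highest, E17 cells 2332 and 1559.7 and E20 cells 959.9 to 2795 RPM. E36 cells had 2580.3 to 4759 RPM, the E47 cell 1804 and the E55 cells 2409 and 2513. Of all rows 0.245% lay below every other cell in all E13 cells and 0.491% above. RPL23A was the 1 member below and 0 members lay above. The 3 cells are the only ones of code MS10 and had the lowest depths of the embryo (472189 to 775709 reads), so stage and code cannot be told apart. By part of member reads, RPS6, RPL10A and RPS4X were among the members also below every other cell at E13. RPS6, the target of S6 kinase, took 0.490, 0.328 and 0.399% there and at least 0.519% elsewhere. RPS6 was named after its values were seen.

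RPS19, a small-subunit protein in which mutations can cause Diamond-Blackfan anaemia, was high in E36 cells. They had 3245, 5042, 4018, 5359.8, 4235 and 5877 RPM, against 974 to 3235 RPM in the other 28 cells. Embryo cells averaged 1736 ± 475 RPM (SD, n = 25 cells). The E47 cell had 1566 RPM and the E55 cells 2345 and 3235. RPS24, named after its values were seen, was the other member above all other cells at E36, with 4851 to 6825 RPM against at most 4373. Of all rows 0.192% were above and 0.032% below every other cell in all E36 cells. For RPS19 the gap was narrow, since E36 cell 1 lay just above E55 cell 2. Cells of code MS11 from E17, E47 and E55 were among those exceeded. By part of member reads, however, neither gene was free of overlap, and RPL3, which forms part of the peptidyl transferase region, was the only member set apart at E36. RPL3 took 0.589, 0.715, 0.577, 0.481, 0.494 and 0.627% of member reads there and at least 0.730% in all other cells. It took 1.41 and 1.27% at E55 (2463 and 2121 RPM against 1019 to 1698 at E36).

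**Figure D4:**
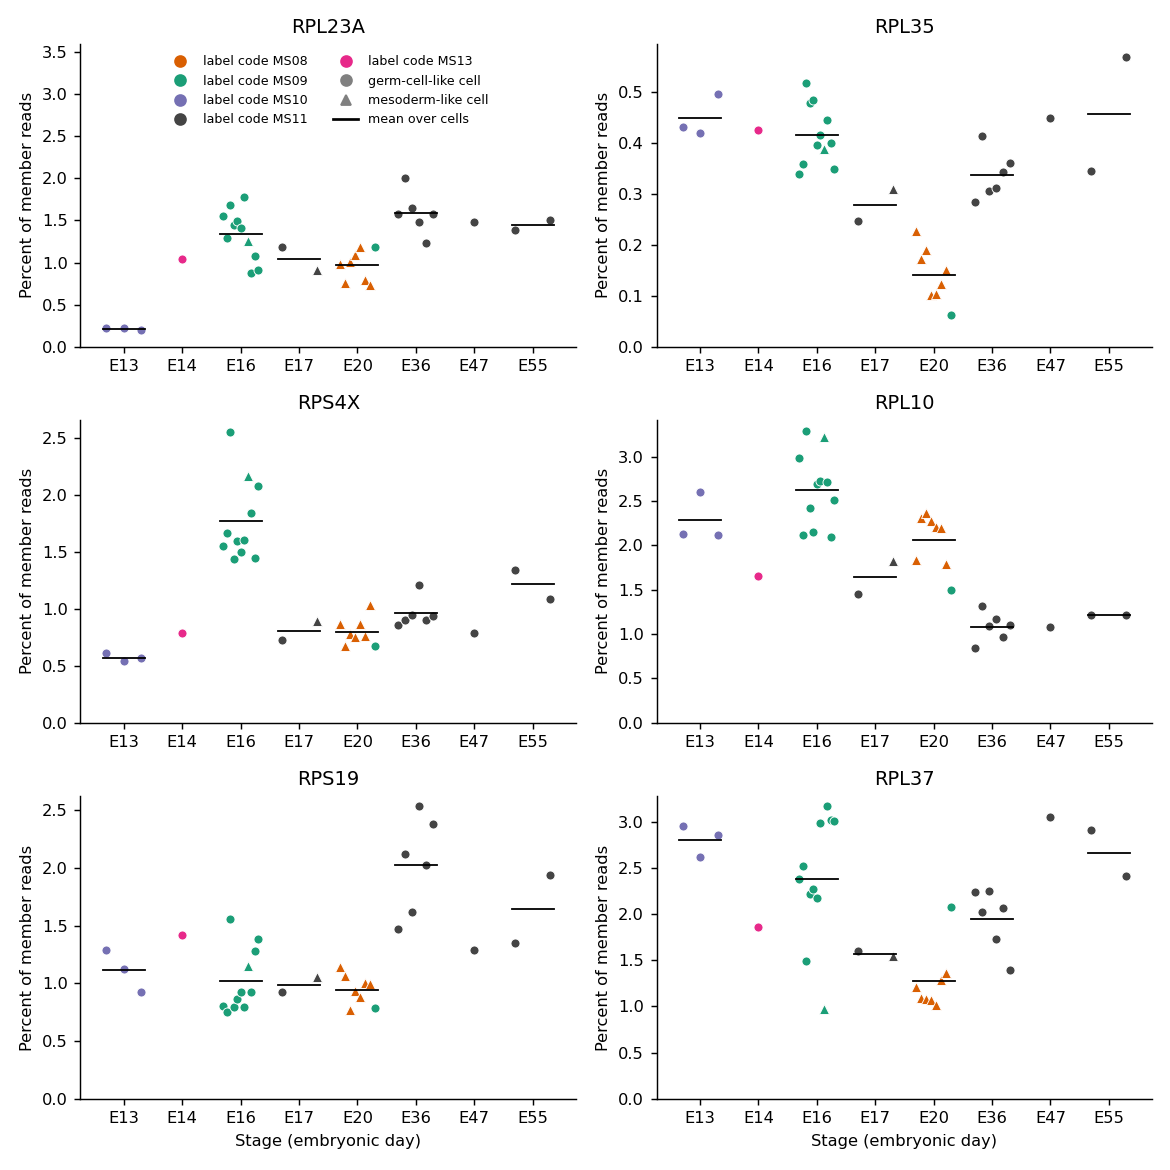
Percent of member reads of 6 genes in each cell (points, coloured by label code, shaped by cluster; lines are means over cells). RPL23A is low in the 3 E13 cells, RPL35 in all 8 E20 cells and RPL10 in all 9 gonad cells, RPS4X is high in all 11 E16 cells and RPS19 is high at E36, while RPL37 is low in E16 cell 8 and the mesoderm-like E20 cells but not in E20 cell 8.

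A comparison added after the values were seen set the 6 E36 cells against the 10 germ-cell-like E16 cells, so that both sides held germ-cell-like cells. The median member was 0.29 and the median of all rows -0.44. In 12 of the 74 members all E36 cells lay above all of these E16 cells, and in 1, RPL10, all lay below, against 1.05% and 0.565% of all rows. Among rows of 400 RPM or more the shares were 11.7% and 2.04%, and 12 and 1 of the 69 members at that level were in these classes, counting members among the rows. The 12 included RPS19, RPL11, RPL12, RPL28 and RPS12. RPL11, which binds MDM2 when free of the ribosome, had 5661 to 7748 RPM at E36, and the germ-cell-like E16 cells 2307 to 3550.4 RPM. RPL12, a protein of the stalk base, had 3104 ± 349 RPM (SD, n = 6 cells) against 1616 ± 352 (SD, n = 10 cells). At E55 there were 3214 and 2993 RPM of RPL11 and 1551 and 1434 RPM of RPL12. High levels of these 2 genes were not particular to E36. E20 cell 8 had 6532 RPM of RPL11, within the E36 range, and the E13 cells had 3960, 4638 and 4502 RPM. For RPL12 the E13 cells had 2558, 3451 and 2587 RPM, which overlapped the 2698 to 3757 RPM of the E36 cells. RPS19, RPL10 and RPL22L1 lay 1.04, -1.24 and -1.55 from the median member. RPL7L1 also left the trend, at -1.18. E16 and E36 cells carry different codes.

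E16 cell 8 and E20 cell 8 cross stage and cluster, so their values were set beside 2 groups of cells that differ in both. By part of member reads, 17 of the 74 members separated the 10 germ-cell-like E16 cells from the 7 mesoderm-like E20 cells without overlap, 8 higher at E16 and 9 higher at E20. On that scale no share over all rows was made, so these counts have no background. In RPM the counts were 12 and 0, against 0.939% and 1.07% of all rows. Among rows of 400 RPM or more, 8.16% were higher in all E16 cells and 2.92% in all E20 cells, and of the 69 members 12 and 0. Members are counted among these rows and made up 12 of the 28 that were higher in all E16 cells. For each of the 17, each of the 2 cells was assigned to the nearer group mean on a log scale. No class was kept for values between the groups, so each cell had to fall on 1 side.

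In 4 members, RPL35, RPS4X, RPL15 and RPL28, both cells lay with their stage. RPL28, for example, took 0.263% to 0.390% of member reads in the germ-cell-like E16 cells and 0.436% to 0.751% in the mesoderm-like E20 cells, with 0.244% in E16 cell 8 and 0.734% in E20 cell 8. RPL15 took 1.69% to 2.72% and 1.19% to 1.62%, with 2.39% and 1.25% in the crossed cells. In 5 members, among them RPL37, RPS28, RPL9 and RPL7, both lay with their cluster. RPL37 took 1.496% to 3.16% in the germ-cell-like E16 cells and 1.01% to 1.36% in the mesoderm-like E20 cells, while E16 cell 8 had 0.977% and E20 cell 8 2.08%. RPL7 took 0.767% to 1.22% and 1.39% to 1.81%, with 1.86% in E16 cell 8 and 0.751% in E20 cell 8. In RPL22, RPL3, RPL12 and RPS12, among others, both cells were nearer to the germ-cell-like E16 cells, and in RPS7, RPL19 and RPL37A nearer to the mesoderm-like E20 cells. For RPS7, however, both cells (3.33% and 3.37%) lay between the groups, which ended at 3.23% and began at 3.45%. RPL15, RPL37, RPS28, RPL9, RPL19 and RPL37A were named after their values were seen. With 1 cell on each crossed side, these placements have no replicate, and E20 cell 8 shares code MS09 with the E16 cells.

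RPL22 and RPL22L1 encode close large-subunit proteins that can stand in for each other. RPL22L1 had 407, 452 and 454 RPM in the E13 cells, 454 in the E14 cell, 142 RPM at the lowest, 411 at the median and 765 at the highest at E16, 430.0 and 424 at E17 and 193 to 601 RPM at E20. The E36 cells spread from 66.7 to 415 RPM, the E47 cell had 366 and the E55 cells 247 and 209. As a percent of the pair's summed mean, RPL22L1 made up 27.1% at E13, 16.4% at E16, 21.2% at E20, 12.6% at E36 and 10.2% at E55. Single cells ranged from 5.57% to 34.9%, and the stages overlapped. RPL22 itself had 1474 to 3138 RPM in the germ-cell-like E16 cells and 884 to 1343 RPM in the mesoderm-like E20 cells.

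RPL39L, which takes the place of RPL39 in some ribosomes, was on average higher in germ-cell-like than in mesoderm-like cells, with exceptions on both sides. The 3 E13 cells had 296, 45.1 and 145 RPM, the E14 cell 54.5 and the E16 cells 18.8 RPM at the lowest, 65.3 at the median and 140.0 at the highest, the lowest being E16 cell 8. E17 cell 1, a germ-cell-like cell, had only 5.97 RPM and E17 cell 2 23.2. The 8 E20 cells had 31.6, 3.69, 13.4, 19.6, 72.5, 0, 0.933 and 194 RPM, of which E20 cell 8 was highest and cell 6 held 0 reads, which allows up to 2.04 RPM. E36 cells had 71.9 to 234 RPM, the E47 cell 73.5 and the E55 cells 193 and 127. Germ-cell-like cells averaged 113 ± 69.5 RPM (SD, n = 25 cells) and mesoderm-like cells 20.4 ± 22.3 (SD, n = 9 cells), with overlap. The 25 include the E47 cell, whose markers were mainly gonadal somatic. Against germ-cell-like embryo cells alone, gonad RPL39L lay 0.76 above the median member, under the 1 that marks leaving the trend. Within code MS09 its E20 against E16 value was 1.16, the opposite sign. RPL39 itself ranged from 239 to 2425 RPM, and RPL39L made up 6.94% of the pair in embryo and 9.72% in gonad cells.

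RPS27L, RPL26L1 and RPL7L1 varied several-fold between cells of 1 stage. RPS27L had 106, 7.73 and 75.4 RPM in the E13 cells and 32.1 to 171 at E16, 11.9 and 2.501 at E17, 1.48 to 98.7 at E20 and 6.18 to 136 at E36. Its highest value, 261 RPM, was that of E55 cell 2, and the other E55 cell had 60.5 RPM. RPS27 had 1649 ± 671 RPM (SD, n = 25 cells) in embryo and 2912 ± 734 RPM (SD, n = 9 cells) in gonad cells. RPL26L1 ranged from 0 reads in E13 cell 3, which allows 4.61 RPM, to 186 RPM in E17 cell 1, and its partner RPL26 from 830.0 to 3157 RPM. RPL7L1, whose relation to RPL7 is by sequence and which is linked to ribosome assembly, ranged from 3.43 RPM in E36 cell 3 to 336 RPM in E16 cell 6. RPL10L, a retrogene of RPL10 that is active in male meiosis, had 15.4 RPM (15 reads) in E55 cell 1 and 18 reads in the 34 cells together. RPL3L, the muscle form of RPL3, had 1 read in all, in E16 cell 8.

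**Figure D5:**
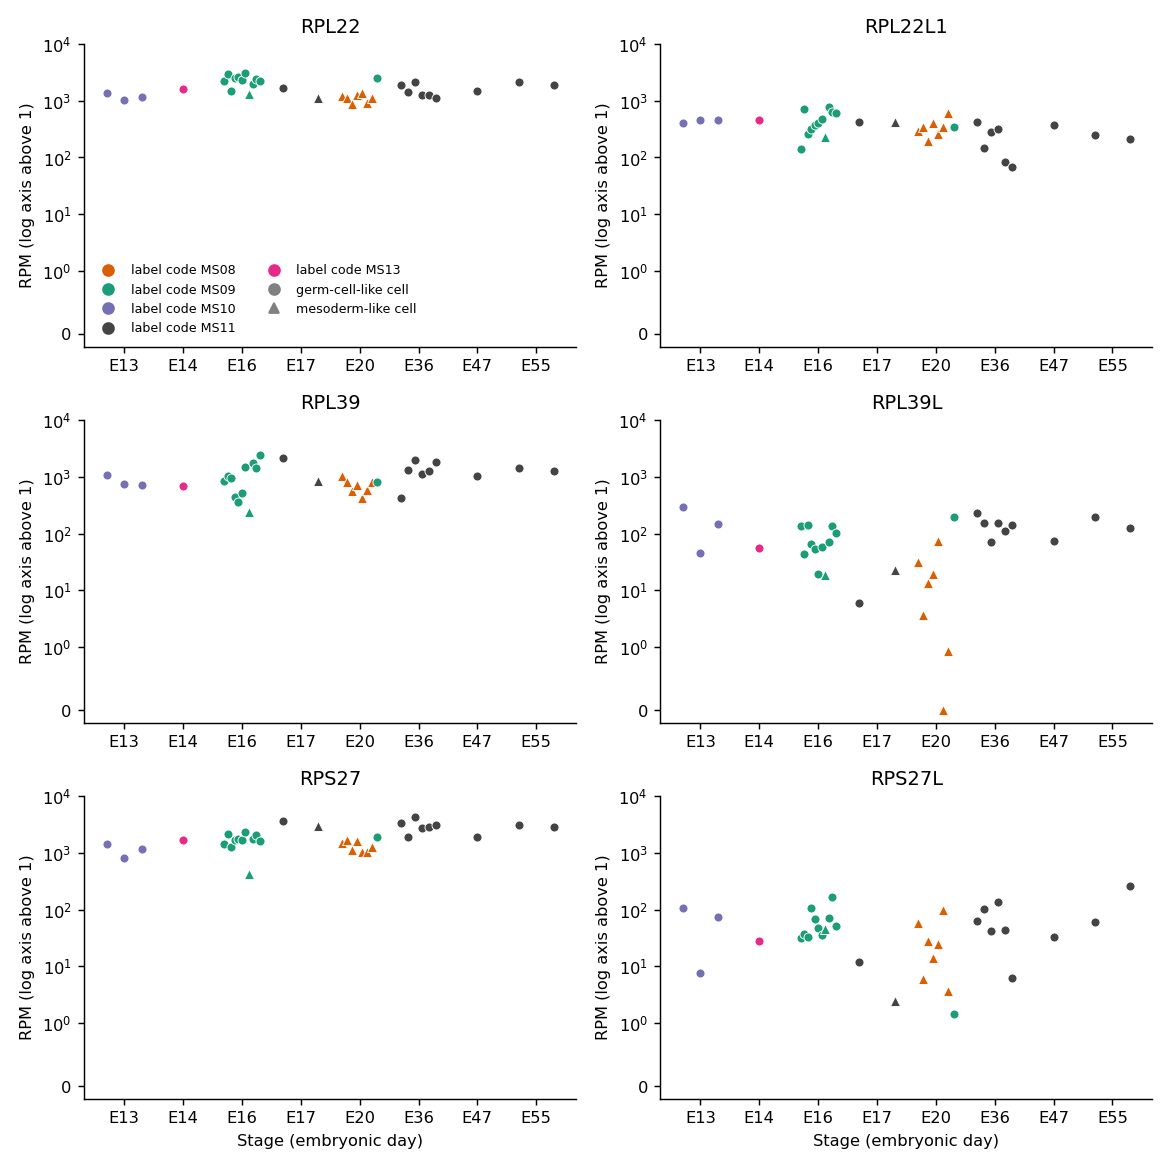
RPM of 3 paralogs (right) and of the genes they resemble (left) in each cell, on an axis that is logarithmic above 1 and linear below; colour is label code and shape is cluster. RPL39L is at 0 in 1 mesoderm-like E20 cell while RPL39 stays between 239 and 2425 RPM, and RPS27L spreads from 1.48 to 261 RPM.

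Genes of neighbouring functions were described by their counts and medians in the same 3 comparisons (gonad against embryo, E20 against E16, E55 against E36), to be read beside the medians of all rows, -0.17, -0.20 and 0.60. The counts are to be read beside the rows that were 2-fold higher and lower, which were 9.34% and 19.9% of all rows in the first comparison, 15.1% and 24% in the next and 39.3% and 10.6% in the last. The 6 ribosomal protein genes with other symbols had medians of 0.32, -0.003 and -0.55, beside 0.24, -0.22 and -0.38 for the members, and 0 of 6 differed 2-fold in any comparison. RPLP0 of the stalk, for example, had 4417 ± 683 RPM at E16 and 6882 ± 869 RPM at E36 (SD, n = 11 and 6 cells). The 20 translation factors and other genes with TOP tracts had medians of 0.20, -0.07 and -0.10. Among these, elongation factor EEF2 was the lowest in E20 against E16 (-2.18) and the highest in E55 against E36 (1.69). EEF2 had 761 ± 351 RPM at E16, 155 ± 64.4 at E20, 383 ± 66.3 at E36 and 1226 ± 39.9 at E55 (SD, n = 11, 8, 6 and 2 cells).

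Ribosome biogenesis genes, which make and process ribosomal RNA, had their lowest median in E20 against E16. In E55 against E36 their median was above 0 but below the 0.60 of all rows, while that of the members was below 0. Of 79 that passed the filter, 8 were 2-fold higher and 11 lower in gonad against embryo (median 0.09). The counts were 1 and 24 in E20 against E16 (median -0.51), with POLR1A, the large subunit of RNA polymerase I, at 54.2 ± 27.5 RPM at E16 and 14.2 ± 27.6 at E20 (SD, n = 11 and 8 cells). In E55 against E36 they were 27 and 12 (median 0.29), where 39.3% of all rows were 2-fold higher and 10.6% lower. Together these genes held 0.422% to 0.831% of a cell's reads. Of 65 mitochondrial ribosomal protein genes that passed, 6 and 6 were 2-fold higher and lower in gonad against embryo, 6 and 7 in E20 against E16, and 20 and 4 in E55 against E36 (medians 0.07, -0.17 and 0.54). The share higher at E55 was thus below the 39.3% of all rows. The 13 regulators of mTORC1 and TOP translation had medians of -0.08, -0.10 and 0.19, and RPTOR, the scaffold of mTORC1, had 0 reads in all 6 E36 cells, which allows up to 1.02 to 3.71 RPM per cell, and 25.4 ± 13.4 RPM at E55 (SD, n = 2 cells). The 12 genes of the p53 response had medians of 0.39, -0.15 and 1.81, and 10 of 12 were 2-fold higher at E55, against 39.3% of all rows. CDKN1A among them also had 0 reads in the E36 cells and 129 ± 183 RPM at E55 (SD, n = 2 cells), a spread larger than the mean.

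The 20 proliferation genes had medians of -2.07, 0.57 and 1.36, and 13 of 20 were 2-fold lower in gonad cells, against 19.9% of all rows. Within gonad cells, 13 of 20 were 2-fold higher at E55 than at E36, against 39.3% of all rows. MKI67 had 146 ± 118 RPM in embryo and 37.7 ± 74.3 RPM in gonad cells (SD, n = 25 and 9 cells). Over the 34 cells the members' share and the summed proliferation genes had a Pearson r of -0.54, and within the 10 germ-cell-like E16 cells one of -0.64. E36 cells, with the highest mean member share, had 623 to 3344 RPM of proliferation genes, against 833 to 7225 RPM at E16.

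Outside the set, the genes whose log2(RPM + 1) rose most closely with the members' share over the 34 cells were mainly of the ribosome and of translation. Among genes of mean at least 50 RPM, the 8 with the highest Pearson r were GNB2L1 (0.80), RPLP2 (0.73), TEC (0.67), RPLP1 (0.66), a read-through row of RPL17 and its neighbour (0.66), EIF3H (0.65), RPSA (0.63) and EEF1B2 (0.62). The 8 genes with the lowest r ran from -0.73 to -0.70, a larger size than that of TEC and the genes listed after it. GNB2L1 encodes RACK1, which sits on the small subunit. It had 2346 ± 434 RPM at E16, 1957 ± 332 at E20 and 3221 ± 367 at E36 (SD, n = 11, 8 and 6 cells). Within the 10 germ-cell-like E16 cells, which share stage, code and cluster, the r was 0.86 for GNB2L1, 0.79 for TEC, 0.76 for RPLP1 and -0.02 for RPLP2. These genes share the library total with the members and were picked from many.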

How the data were processed

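Transcripts of 34 single cells were read from their 3′ ends (SC3-seq, SOLiD). The authors deposited 1 table of log2(RPM + 1) values, and the submitters' processing notes name cutadapt 1.3, TopHat 1.4.1 and Cufflinks 2.2.0. The build and annotation were not given in the sources used here. Deposited log2 values were turned back into RPM with Python 3.11.15, numpy 2.4.6, pandas 2.3.3 and scipy 1.17.1. Each column's most common positive value gave the worth of 1 read and so the depth. Of 372313 positive values, 65 below 0.05 RPM were set to 0. Of the low values, 99.7% or more per cell were whole reads within 0.1. A value of 0 allows 3 reads.

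Shares are percent of a cell's total or of its member reads. Backgrounds over all rows were made in RPM only, not by part of member reads. Differences are of mean log2(RPM + 1) over rows with a mean of at least 10 RPM. Each stage is 1 sample, since no animal is named, so no test was made. The difference script was tested on simulated data. Cells were clustered on 1000 variable non-member genes by average linkage. Doublets were not called.

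Members, gene lists and naming rules were chosen with earlier results of these data known. Named members are the 4 farthest above and below the median member in each comparison, the 5 highest and 5 lowest, the 4 least and 4 most variable, and the paralog pairs, and others are marked where named. Named genes outside the members are those of highest level or largest difference in each list, and the 8 of highest correlation with the members' share. Alternatives tried were the pseudocount, filter, denominator, summary, label code, cluster and leaving out each cell. Those by E36, E47 with E55, and mesoderm-like cells were chosen after seeing the data. A few members are not reported here.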

Additional observations from a re-analysis of the deposited data

Results flagged for a closer look

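In stages of 6 or 8 cells, the gap between the highest or lowest cell and its nearest neighbour was compared with Dixon's 95% limit for 30 measures. Of 60 groups screened 9 exceeded it, where chance alone gives about 3. The measures share cells and library totals.

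Of the 9, 8 were values of E20 cell 8, the germ-cell-like cell of its stage and its only one of code MS09. Its member share of reads was 23.7%, against 17.7% in the next E20 cell. RPL22 was at 2532 RPM, against 1343 in the next cell, RPL3 at 2270.4 against 1404 and RPL26 at 3157 against 1803. RPL10A was at 3079 RPM against 2239.9, RPL32 at 2930.3 against 1859 and RPS29 at 9819.6 against 6001. RPL39L was at 194 RPM against 72.5. In all 8 this cell was the highest of the 8. RPL12 in E36 cell 6, at 3757 RPM against 3063 in the next E36 cell, was the other.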

How the results depend on the processing

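No paired analysis was possible because the replicate numbers were given in accession order and no result comes from a test. Among the results over all members, 65 values under other settings kept their direction and size, 8 moved and 6 reversed, and none of the 217 values with 1 cell left out reversed, though sizes varied. For single members, 506 kept, 33 moved and 1 reversed. With E47 and E55 cells only, the gonad minus embryo share was -1.67 points, the median member -0.15 and the small-subunit difference 0.0448 points. In that share the E47 cell had 12.2% and the E55 cells averaged 17.1%, against 17.2% in embryo cells. The small-subunit difference was 0.391 points within code MS11 and 4.57 for E36 against germ-cell-like E16 cells. Within code MS09, E20 minus E16 gave a share of 5.77 points, a median of 0.45, 8 members off the trend (5 in the comparison as made) and RPL39L at 1.16. Against the mesoderm-like E16 cell the same values were 4.57 points, 0.47 and 11 members. A pseudocount of 10 left 3 members off the trend (RPL35, RPS4X and RPL39L) and the log2 ratio of means 2 (RPL35 and RPS4X). With protein-coding rows as denominator, the E55 minus E36 share was -7.59 points. The cause was not tested. With 1 cell left out, the share difference ranged from 2.80 to 4.39 points (gonad), -3.31 (without E20 cell 8) to -1.68 (E20) and -6.31 to -5.51 (E55). The medians ranged from 0.21 to 0.35, -0.32 to -0.13 (the last without E20 cell 6) and -0.40 to -0.35, the members off the trend from 2 to 3, 4 to 6 and 2 (without E36 cell 3 or E55 cell 2) to 4, and the small-subunit difference from 2.11 to 2.75 points. Depth limits the low paralogs most, at E13 above all.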
